A study of Mus musculus with 2 samples.

Results

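The parathyroid cells described here carried the most immediate early RNA of their library, in a pair of single-cell libraries made from mouse parathyroid glands that had grown from embryonic stem cells (ESCs). A barcode was taken as a parathyroid cell where Pth, the gene for parathyroid hormone, supplied at least 5% of its unique molecular identifiers (UMIs, 1 for each captured RNA molecule). Each such cell was scored by the summed UMIs of 6 immediate early genes, Fos, Fosb, Jun, Junb, Egr1 and Ier2, as a share of all its UMIs. The cells were ranked by that score within each library, and the top quartile was set against the bottom quartile over all other genes. Membership was thus chosen by the measured UMIs of these 6 genes and of Pth. The top quartiles held 728 cells, 168 in replicate 1 and 560 in replicate 2, and the bottom quartiles held 730 cells, 169 and 561. They came from 2916 parathyroid cells among 4924 barcodes.

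Both libraries were of 1 kind and there was no untreated or wild-type group. The hosts were adult Gcm2-/- mice on a BDF1B6 background, which lack the transcription factor that parathyroid glands need to form, and they had been complemented with Pth-tdTomato mouse ESCs, in which a red fluorescent reporter marks Pth expression. Replicate 1 combined glands from 3 animals, 9 to 12 weeks old, whose peripheral blood cells were 50 to 70% chimeric. Replicate 2 combined glands from 5 animals, 6 to 13 weeks old, at 60 to 70%. Each pool mixed males and females, so that no cell can be traced to an animal, and host cells remained beside the ESC-derived ones. Glands were minced and digested with papain, collagenase and trypsin before doublets were removed by flow sorting, so RNA already present in the gland and RNA made during digestion cannot be told apart.

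Immediate early genes are transcribed within minutes of a stimulus, without new protein synthesis, because the factors that switch them on (SRF with its ternary complex partners, CREB, and others) already sit in the cell and are activated by kinases. Many of their products are themselves transcription factors, and FOS and JUN proteins pair to form AP-1. Others, such as the phosphatase DUSP1 and the RNA-binding protein ZFP36, end the response by switching off the kinases or by destroying the short-lived mRNAs. In the parathyroid chief cell, the calcium-sensing receptor CASR reads blood calcium and restrains the release of parathyroid hormone.

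Barcodes were kept where they had at least 500 genes, a mitochondrial share below 15% and a haemoglobin share below 5%. By this filter 1259 of 1406 barcodes remained in replicate 1 and 3319 of 3518 in replicate 2, of which 673 (53.5%) and 2243 (67.6%) were parathyroid cells. Their median depth was 37999 and 30602 UMIs. The limit on Pth fell in a gap: the lowest member had 6.02% and 5.40% of its UMIs from Pth, and the highest barcode outside had 4.23% and 4.89%. Of all barcodes, 3 sequences occurred in both libraries, 1 of them among the parathyroid cells. Pth chose the cells, so the label was read against genes the rule did not use. Gcm2, the parathyroid master regulator, had 141 and 153 CPM (UMIs per 1000000) in the top quartiles, against 2.53 and 0.465 CPM in the top quartiles of fibroblast-rule cells, the collagen-expressing cells described further on, and Casr had 295 and 298 CPM against 2.53 and 0.465 CPM. The median share of UMIs from Pth was 14.2% and 15.3% in the top quartiles, against 14.3% and 16.3% in the bottom quartiles.

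Most parathyroid cells lay in 1 broad range of the score, with a smaller group of near-silent cells at the low end: in replicate 1, 7.28% of the cells scored under 0.1% and 3.71% between 0.1 and 0.2%, and in replicate 2 these shares were 6.82% and 6.46%. From the bottom to the top quartile its median was 0.230, 0.443, 0.594 and 0.869% of UMIs in replicate 1 and 0.192, 0.391, 0.562 and 0.823% in replicate 2. The values that chose the cells lie next to each other at each limit: the lowest score in the top quartile was 0.710% and 0.672%, and the highest score in the third quartile was 0.706% and 0.672%. The highest score of any parathyroid cell was 2.07% and 1.68%. At the low end, 39 cells (5.79%, 95% Wilson interval 4.27 to 7.82) and 100 cells (4.46%, 3.68 to 5.39) scored under 0.05%, and 4 and 6 cells had no UMI of any of the 6 genes. Intervals of this kind cover counting error only. Those near-silent cells had a median mitochondrial share of 4.21% and 4.0%, against 3.44% and 3.30% in the remaining parathyroid cells.

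**Figure D1:**
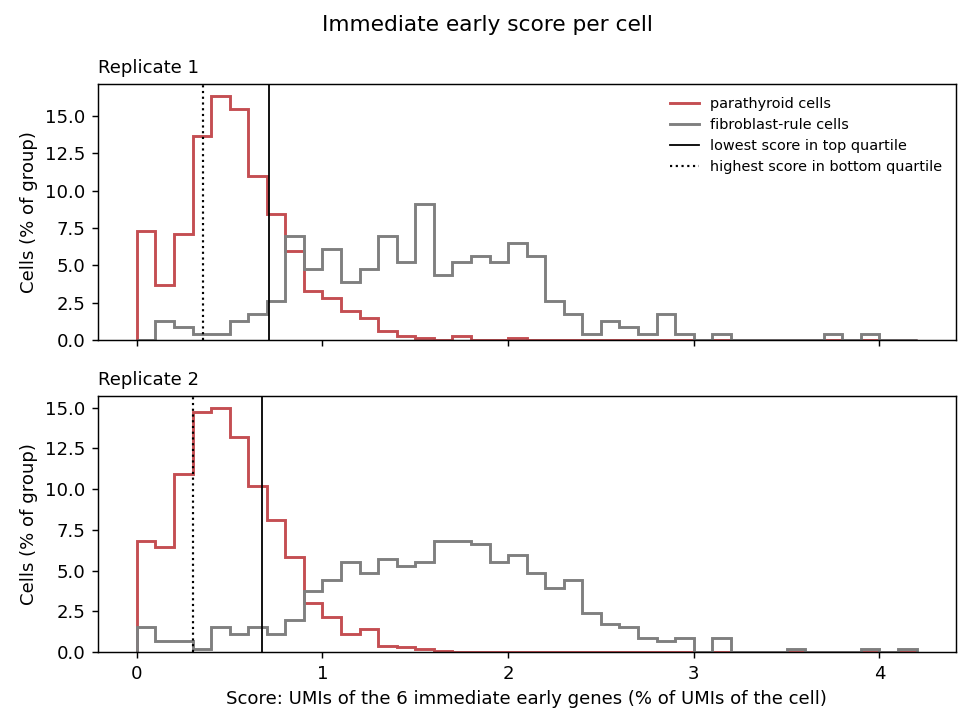
Share of cells (y axis, % of the group) by immediate early score (x axis, % of the UMIs of the cell), for parathyroid cells in red and for fibroblast-rule cells, which are collagen-expressing cells with little Pth, in grey; the solid line is the lowest score of the top quartile and the dotted line the highest score of the bottom quartile. Parathyroid cells peak between 0.4 and 0.5% in both libraries, with a smaller peak near 0 in replicate 1, and the fibroblast-rule cells lie to the right, with medians of 1.53% and 1.67%.

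The score was lower in parathyroid cells than in the rest of the gland. The median score was 0.510% and 0.474% in parathyroid cells, against 0.981% and 1.28% in all other kept cells. Depth was greater in the top quartile of replicate 1 and similar between the quartiles of replicate 2: the median depth was 37247 and 30367 UMIs in the top quartiles, against 32808 and 30851 in the bottom quartiles, and the median mitochondrial share was 3.37% and 3.28% against 3.70% and 3.49%. With each cell thinned to 10000 UMIs, the median number of genes detected was 3084 and 3101 in the top quartiles, against 3056.5 and 3061 in the bottom quartiles, with 3 and 11 cells of the top quartiles and 11 and 18 of the bottom quartiles too shallow to be thinned. Without thinning the median was 6154 and 5618.5 genes in the top quartiles, against 5862 and 5599 in the bottom quartiles.

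Fos and Jun, which encode the founding partners of AP-1, supplied most of the score. Levels are in CPM, the UMIs of a gene per 1000000 UMIs of the summed cells, and since these values chose the cells they are given with no test. Fos had 659, 1494, 2188 and 3349.7 CPM from the bottom to the top quartile of replicate 1, and 551, 1289, 1941 and 2899 CPM in replicate 2. Jun had 569, 1193, 1677 and 2724 CPM in replicate 1 and 550.4, 1229, 1801 and 2872 CPM in replicate 2. In the top quartiles Fos made up 36.3% and 32.8% of the score UMIs, and Jun 29.5% and 32.5%. Junb, another JUN family member, had 471, 808, 933 and 1314 CPM in replicate 1 and 343, 714, 869.6 and 1195 CPM in replicate 2, the flattest gradient of the 6 genes, with top over bottom ratios of 2.79 and 3.49. Fosb, a FOS family member, had 235, 427, 567 and 862 CPM in replicate 1 and 141, 246, 339 and 550.0 CPM in replicate 2. Its level was higher in replicate 1 than in replicate 2 in all 4 quartiles. Egr1, which encodes a zinc finger transcription factor, had 104, 209, 315 and 578 CPM in replicate 1 and 66.3, 190.1, 392 and 761 CPM in replicate 2. Its top over bottom ratio was the highest of the 6 in each library, 5.56 in replicate 1 and 11.5 in replicate 2. Ier2, a nuclear immediate early protein, had 138, 235, 270.0 and 399.6 CPM in replicate 1 and 104, 228, 336 and 549.9 CPM in replicate 2.

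**Figure D2:**
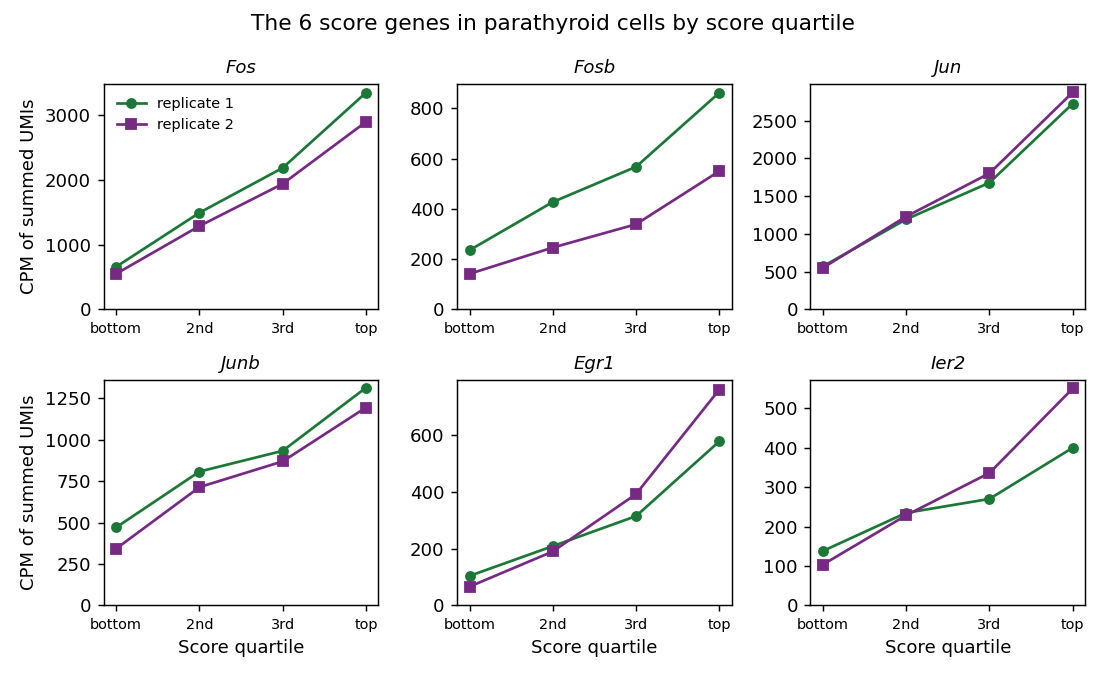
Level of each of the 6 score genes (y axis, CPM of the UMIs summed over the cells) in the 4 score quartiles from bottom to top (x axis), with circles for replicate 1 and squares for replicate 2. All 6 genes step up through the quartiles in both libraries, and Fosb lies at 862 and 550.0 CPM in the top quartiles of replicates 1 and 2.

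The sequences upstream of these genes are shown because the genes move together and because 2 DNA motifs of known kinase-driven factors were looked for there. The letters TGACG, the core of the CREB/ATF site, were searched on both strands, with the palindrome TGACGTCA that contains it, and so was the CArG box of SRF. RefSeq promoter windows of GRCm38.p6, reaching 250 bases before and 50 after each start, were in the table for 4 of the 6 score genes. The 250 bases before the start are printed 5′ to 3′ on the strand of the gene, for Fos at chr12:85473640-85473889 on the plus strand, Fosb at chr7:19310046-19310295 on the minus strand and Junb at chr8:84978749-84978998 on the minus strand, with Atf3 at chr1:191183334-191183583 on the minus strand, Dusp1 at chr17:26508473-26508722 on the minus strand and Btg2 at chr1:134079156-134079405 on the minus strand, 3 responsive genes described further on. Capitals mark TGACG, its complement CGTCA or the full palindrome.
Fos: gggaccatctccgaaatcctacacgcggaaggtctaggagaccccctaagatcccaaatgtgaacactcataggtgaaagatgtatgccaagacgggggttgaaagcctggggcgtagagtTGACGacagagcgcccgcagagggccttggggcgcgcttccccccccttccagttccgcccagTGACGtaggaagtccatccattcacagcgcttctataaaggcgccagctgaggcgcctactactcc
Fosb: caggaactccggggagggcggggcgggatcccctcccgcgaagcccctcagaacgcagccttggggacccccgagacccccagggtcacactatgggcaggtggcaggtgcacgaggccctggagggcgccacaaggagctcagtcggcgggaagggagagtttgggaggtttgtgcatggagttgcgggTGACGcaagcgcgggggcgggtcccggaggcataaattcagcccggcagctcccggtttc
Junb: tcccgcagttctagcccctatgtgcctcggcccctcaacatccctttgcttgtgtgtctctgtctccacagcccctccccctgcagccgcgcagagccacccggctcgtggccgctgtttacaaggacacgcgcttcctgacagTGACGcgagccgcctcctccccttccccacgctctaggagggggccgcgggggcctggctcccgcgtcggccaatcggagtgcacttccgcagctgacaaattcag
Atf3: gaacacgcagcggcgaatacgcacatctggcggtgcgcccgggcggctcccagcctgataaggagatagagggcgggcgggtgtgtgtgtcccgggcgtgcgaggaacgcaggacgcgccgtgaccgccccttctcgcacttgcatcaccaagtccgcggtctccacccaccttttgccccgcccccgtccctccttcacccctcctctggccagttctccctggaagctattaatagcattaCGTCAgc
Dusp1: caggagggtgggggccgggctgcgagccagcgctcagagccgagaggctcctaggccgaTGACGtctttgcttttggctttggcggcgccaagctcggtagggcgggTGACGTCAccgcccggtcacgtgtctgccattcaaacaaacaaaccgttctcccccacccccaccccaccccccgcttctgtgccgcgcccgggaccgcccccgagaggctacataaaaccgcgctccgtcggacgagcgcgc
Btg2: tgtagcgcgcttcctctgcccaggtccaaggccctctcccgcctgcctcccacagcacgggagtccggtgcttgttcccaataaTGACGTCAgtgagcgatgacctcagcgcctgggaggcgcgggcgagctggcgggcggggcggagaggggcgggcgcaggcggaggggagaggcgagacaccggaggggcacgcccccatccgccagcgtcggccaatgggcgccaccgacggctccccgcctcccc
Fos held TGACG with its first base 66 and 129 bases before the start, Fosb 60 bases and Junb 106 bases before it, and the Jun window held none of the motifs. TGACG was in the windows of 3 of the 4 score genes, in 34.8% of 10962 tested genes with a window and in 20.8% of all 32851 windows. The palindrome and the CArG box were each in 0 of the 4. The 3 further windows printed all held TGACG or its complement. The window of Zfp36, another responsive gene, is not printed and held a CArG box and no TGACG. Among the 51 immediate early genes called higher below, 41 had a window, of which 26 (63.4%) held TGACG, 5 (12.2%) the palindrome and 4 (9.76%) a CArG box. The palindrome was in 3.55% and the CArG box in 1.63% of the tested genes. A match is a description of the letters in the window and does not show a factor bound there.

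The 6 genes rose and fell together from cell to cell. With each cell thinned to 10000 UMIs, Spearman's rho between pairs of the 6 genes lay between 0.145 and 0.521 in replicate 1 (median 0.315 over 15 pairs) and between 0.238 and 0.480 in replicate 2 (median 0.418). These are descriptions across cells that share a library, and low counts pull them towards 0. To test each gene on cells it had not chosen, the cells were ranked again on the other 5 genes and the UMIs were summed per library and quartile. In these rankings edgeR's quasi-likelihood test with the library as a block, adjusted over all genes by Benjamini-Hochberg, called between 4.81 and 6.03% of tested genes higher, and the gene left out was among them in all 6. The share called was 5.87% with Fos left out, 5.62% with Fosb, 6.03% with Jun, 4.94% with Junb, 4.81% with Egr1 and 5.63% with Ier2.

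Fos, left out of its own ranking, had 2983 and 2533 CPM in the top quartiles, against 1054 and 777 CPM in the bottom quartiles (log2 fold change 1.58 ± 0.05, SE, adjusted p = 1.14e-09). Jun had 2439 and 2412 CPM in the top quartiles, against 824 and 843 CPM in the bottom quartiles (log2 fold change 1.51 ± 0.04, SE, adjusted p = 2.80e-10). Top and bottom levels did not overlap for any of the 6 genes, a description with no share over all genes beside it. Fosb had 838 and 526 CPM in the top quartiles, against 266 and 155 CPM in the bottom quartiles (log2 fold change 1.7 ± 0.04, SE, adjusted p = 6.22e-12), and without the library block its difference missed the threshold at 1.69, adjusted p = 0.0922. Junb had 1260.3 and 1125 CPM in the top quartiles, against 538 and 407 CPM in the bottom quartiles (log2 fold change 1.33 ± 0.05, SE, adjusted p = 7.94e-09). Egr1 had 524 and 666 CPM in the top quartiles, against 120.1 and 96.3 CPM in the bottom quartiles (log2 fold change 2.5 ± 0.13, SE, adjusted p = 7.78e-08), the steepest of the 6. Ier2 had 382 and 518 CPM in the top quartiles, against 148 and 118 CPM in the bottom quartiles (log2 fold change 1.79 ± 0.12, SE, adjusted p = 8.42e-07). For every gene but Jun the ratio was larger in replicate 2 than in replicate 1. Cells rich in 5 of these RNAs were thus richer in the sixth in both libraries. The p-values rest on 2 pools of glands and on sums whose cells share a library, and measure only the spread among those sums.

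Over all other genes, the top quartiles differed from the bottom quartiles mostly upward. Of 14560 genes tested, edgeR called 787 higher (5.41%) and 192 lower (1.32%), with a median log2 fold change of -0.02 over all genes. Of the 787, 777 were higher in each library taken alone, and of the 192, 191 were lower in each library. At least 2-fold differences made up 369 of the higher and 19 of the lower calls. Without the library block the counts were 180 and 3.

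A few barcodes with RNA of other cell types moved with the score. The 10 fibroblast markers, collagens and other matrix genes, summed to 328 and 421 CPM in the top quartiles, against 18.2 and 17.9 CPM in the bottom quartiles, and in the top quartiles 90% of those UMIs lay in 5 of 168 and 15 of 560 barcodes. In the bottom quartiles the same share was spread over 63 of 169 and 212 of 561 barcodes. All 9 fibroblast markers tested were called higher in the top quartiles, as were 6 of 9 macrophage and 3 of 5 pericyte or smooth muscle markers. Of all genes 5.41% were called higher. Of 8 endothelial markers 0 were called, with log2 fold changes from 0.22 to 1.49. Over all 128 markers of other cell types the sums were 511 and 689 CPM in the top quartiles, against 181 and 167 CPM in the bottom quartiles, with 43 and 30 markers at 0 against 59 and 44. Cells that Scrublet called doublets or scored at 0.25 or more numbered 6 and 29 in the top quartiles, against 0 and 8 in the bottom quartiles, and with all such cells left out 427 genes were called higher and 100 lower. The counts over all genes and over the gene lists were therefore taken again without the 10% of parathyroid cells in each library that had the largest share of UMIs from those markers, 291 cells called marker-rich from here on. Without them the sums were 176 and 147 CPM in the top quartiles, against 159 and 137 CPM in the bottom quartiles, and the fibroblast markers stood at 19.7 and 15.5 CPM against 16.5 and 17.0 CPM. The fibroblast markers are among the 128 that chose the cells left out, so the fall of both sums follows from that choice.

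**Figure D3:**
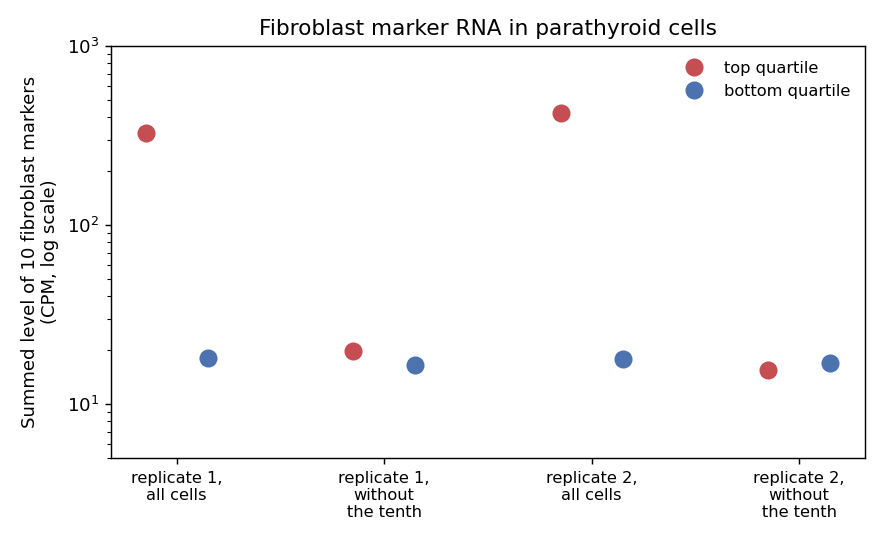
Summed level of the 10 fibroblast markers (y axis, CPM, log scale) in the top (red) and bottom (blue) score quartiles of each library, with all parathyroid cells and without the tenth of cells richest in markers of other cell types. With all cells the top quartiles stand at 328 and 421 CPM, and without the marker-rich cells all 4 sums lie between 15.5 and 19.7 CPM. The 10 markers are among those that chose the cells left out, so this fall follows from the choice.

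Without the marker-rich cells 13949 genes were tested, of which 396 were called higher (2.84%) and 107 lower (0.767%). At least 2-fold differences made up 59 of these higher and 19 of these lower calls, against 369 and 19 with all cells. Of the 787 and 192 calls with all cells, 364 and 93 were called in the same direction without the marker-rich cells. Of the 787, 593 were tested in both sets of cells. Among genes with at least 20 CPM in the higher quartile of each library, mitochondrial, ribosomal protein, Gm-numbered and Rik genes left out, the 12 largest higher differences with all cells were Lama2, Slit3, Col1a2, Dcn, Ptn, Col1a1, Gsn, Col3a1, Lsamp, Vim, Prkg1 and Atf3. The 11 other than Atf3, most of them matrix or mesenchymal genes, had log2 fold changes from 3.13 to 6.09 with all cells. None of the 10 of them tested without the marker-rich cells was called, at values from -0.98 to 0.28. Col1a1, Col1a2, Col3a1 and Dcn are themselves among the markers that chose the cells left out, so their lower values follow from that choice. Col1a1, a chain of type I collagen, had 20 and 27.9 CPM in the top quartiles, against 1.01 and 1.32 CPM in the bottom quartiles. List counts below are given for both sets of cells, and a gene's second value where its call changes. With all cells, 5.41% of all tested genes were called higher and 1.32% lower.

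The high-score cells were also rich in immediate early RNAs that the score did not use. Of 92 further immediate early genes in 3 lists, 87 were tested, 51 were higher and 2 lower (5.41% and 1.32% of all genes), and without the marker-rich cells 48 were higher and 2 lower of 84, 46 of them higher in both. All 51 were higher in each library, as were 777 of the 787 genes called higher over all genes. Of the 51, 41 stepped up through every quartile of both libraries, as did 261 of the 787 and 358 of all 14560 tested genes.

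Among the AP-1 and EGR relatives outside the score, 9 of 13 tested were higher and 1 lower, with a median log2 fold change of 1.11, and the counts were the same without the marker-rich cells. Atf3, a stress-induced partner of AP-1 (chr1:191170296-191218039, minus strand), had 509 and 482 CPM in the top quartiles, against 87.9 and 48.4 CPM in the bottom quartiles (log2 fold change 2.96 ± 0.14, SE, adjusted p = 1.55e-08). Without the marker-rich cells its log2 fold change was 3.01, adjusted p = 1.76e-09. Jund had 2367 and 1934 CPM in the top quartiles, against 957 and 926 CPM in the bottom quartiles (log2 fold change 1.16 ± 0.05, SE, adjusted p = 9.71e-09). Egr2 had 13.5 and 12.4 CPM in the top quartiles, against 5.22 and 1.66 CPM in the bottom quartiles (log2 fold change 2.22, adjusted p = 0.000159). Egr3 had 4.11 and 5.24 CPM in the top quartiles, against 1.51 and 0.687 CPM in the bottom quartiles (log2 fold change 2.33, adjusted p = 0.00137). The small MAF genes, whose products pair with AP-1 and related factors, were split: Maff had 19.3 and 19.6 CPM in the top quartiles, against 7.41 and 3.84 CPM in the bottom quartiles (log2 fold change 1.97, adjusted p = 2.22e-05) and Mafk 55.4 and 38.2 CPM in the top quartiles, against 26.8 and 16.7 CPM in the bottom quartiles (log2 fold change 1.11, adjusted p = 2.78e-06), while Mafg gave a log2 fold change of 0.14 and adjusted p = 0.19. Fosl1 had 8.48 and 8.35 CPM in the top quartiles, against 2.02 and 2.23 CPM in the bottom quartiles (log2 fold change 1.98, adjusted p = 0.000618).

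Other immediate early transcription factors and regulators were higher for 33 of 52 tested and lower for 0, with a median log2 fold change of 0.75, and without the marker-rich cells for 29 of 49 and 0. Klf2, a Krüppel-like factor (chr8:72319033-72321656, plus strand), had 64.2 and 74.7 CPM in the top quartiles, against 9.09 and 11.8 CPM in the bottom quartiles (log2 fold change 2.67 ± 0.10, SE, adjusted p = 2.13e-09). Nr4a1, the orphan nuclear receptor NUR77, had 168 and 166 CPM in the top quartiles, against 50.5 and 31.2 CPM in the bottom quartiles (log2 fold change 2.13 ± 0.12, SE, adjusted p = 1.20e-07). Irf1, an interferon regulatory factor, had 136 and 119 CPM in the top quartiles, against 38.9 and 25.9 CPM in the bottom quartiles (log2 fold change 2.02 ± 0.08, SE, adjusted p = 2.13e-09). These 3 genes, picked for large differences, did not overlap between top and bottom quartiles, and no share over all genes is given beside this. They climbed at each quartile, where 261 of the 787 genes called higher did so in both libraries. Zfp36, the mRNA decay factor tristetraprolin, had 477 and 539 CPM in the top quartiles, against 152 and 137 CPM in the bottom quartiles (log2 fold change 1.82 ± 0.07, SE, adjusted p = 2.13e-09). Btg2, an antiproliferative regulator of mRNA deadenylation, had 463 and 493 CPM in the top quartiles, against 172 and 127 CPM in the bottom quartiles (log2 fold change 1.7 ± 0.10, SE, adjusted p = 1.20e-07). Klf6 had 135 and 126 CPM in the top quartiles, against 43.1 and 42.9 CPM in the bottom quartiles (log2 fold change 1.56, adjusted p = 3.07e-09). Gem, which encodes a small GTPase, had 38.4 and 36.8 CPM in the top quartiles, against 9.59 and 9.56 CPM in the bottom quartiles (log2 fold change 1.91, adjusted p = 2.37e-06). Gadd45b and Gadd45g, both growth arrest and DNA damage genes, gave 1.68 and 1.1 on the log2 scale, adjusted p = 4.36e-08 and 6.95e-09, whereas Gadd45a had 64.4 and 62 CPM in the top quartiles, against 51 and 55.5 CPM in the bottom quartiles and missed the threshold, adjusted p = 0.121. Klf4 had 80.9 and 43.4 CPM in the top quartiles, against 18.3 and 16.9 CPM in the bottom quartiles (log2 fold change 1.6, adjusted p = 0.000108), with a wider gap in replicate 1. Crem, a CREB family gene with inducible isoforms, had 86 and 189.9 CPM in the top quartiles, against 92.1 and 191 CPM in the bottom quartiles (log2 fold change -0.07, adjusted p = 0.574). The kinase gene Sgk1, which responds to steroids and salt, had 29.9 and 81.6 CPM in the top quartiles, against 30.3 and 106 CPM in the bottom quartiles, and its log2 fold change of -0.34 missed the threshold, adjusted p = 0.0598.

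Some feedback inhibitors were higher in the high-score cells too. Of 22 tested feedback inhibitors of kinase and cytokine signalling, 9 were higher and 1 lower, with a median log2 fold change of 0.53, and 10 and 1 of 22 without the marker-rich cells. Dusp1, the phosphatase that inactivates p38, JNK and ERK, had 151 and 132 CPM in the top quartiles, against 38 and 36.8 CPM in the bottom quartiles (log2 fold change 1.85 ± 0.09, SE, adjusted p = 1.48e-08). Socs3, an inhibitor of JAK and STAT signalling, had 189 and 169.9 CPM in the top quartiles, against 55.9 and 55.2 CPM in the bottom quartiles (log2 fold change 1.64 ± 0.06, SE, adjusted p = 2.13e-09). Dusp6, an ERK-specific phosphatase, had 60 and 58.1 CPM in the top quartiles, against 32.8 and 32.1 CPM in the bottom quartiles (log2 fold change 0.84, adjusted p = 1.27e-05). Spry1, an inhibitor of receptor tyrosine kinase signalling, had 25.4 and 15.7 CPM in the top quartiles, against 12.1 and 7.62 CPM in the bottom quartiles (log2 fold change 1.04, adjusted p = 0.000103), but Spry2 had 14 and 11.8 CPM in the top quartiles, against 14.3 and 13.5 CPM in the bottom quartiles and was not called, adjusted p = 0.523. Errfi1, an inhibitor of ERBB receptors, had 66 and 77.9 CPM in the top quartiles, against 38.7 and 40.3 CPM in the bottom quartiles (log2 fold change 0.86, adjusted p = 5.19e-06). Tsc22d1 was the gene called lower, at 119 and 170.2 CPM in the top quartiles, against 145 and 234 CPM in the bottom quartiles (log2 fold change -0.42, adjusted p = 0.000441).

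**Figure D4:**
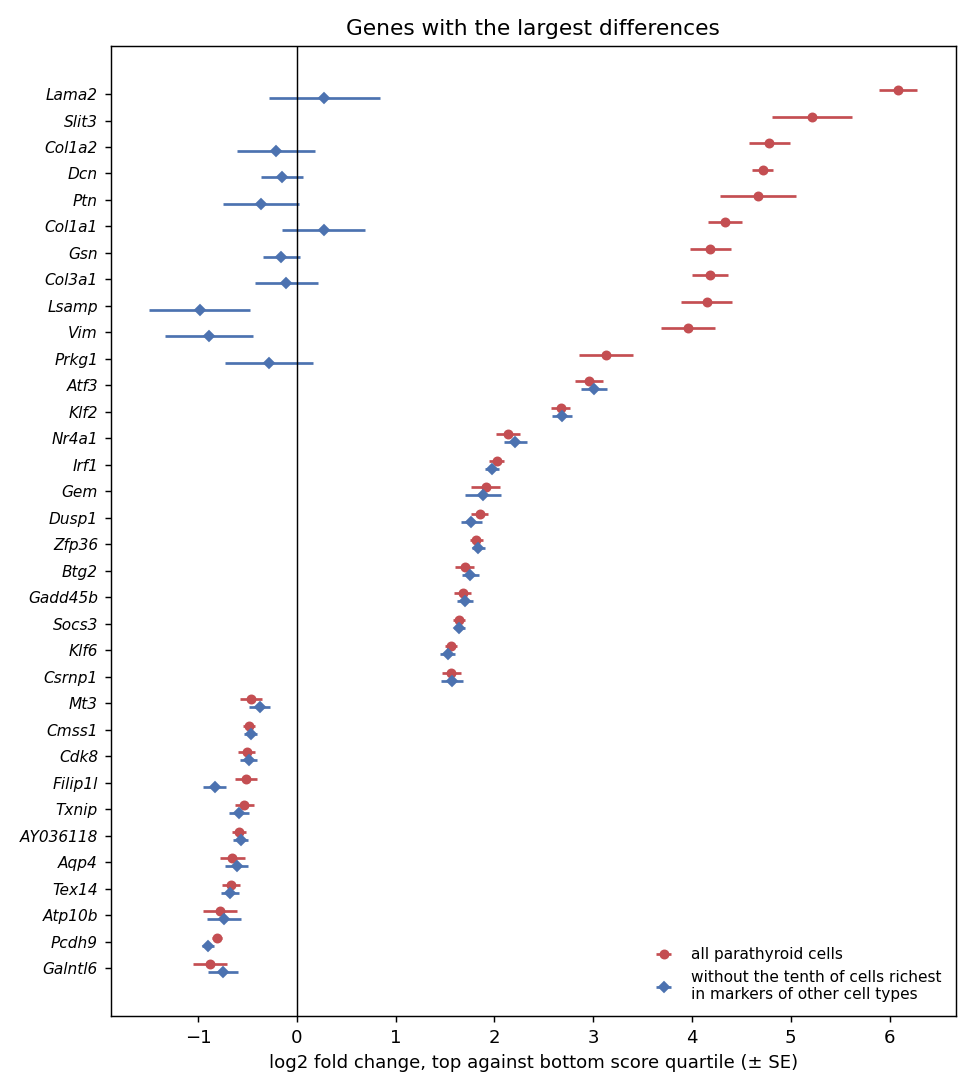
Log2 fold change of the top against the bottom score quartile (x axis, points, with SE as bars) for the genes with the largest differences among those with at least 20 CPM, for all parathyroid cells (red circles) and without the tenth richest in markers of other cell types (blue diamonds; Slit3 was not tested there). The matrix and mesenchymal genes lie above 3 with all cells and between -0.98 and 0.28 without the marker-rich cells, whereas Atf3, Klf2, Nr4a1 and the other immediate early genes lie between 1.53 and 3.01 there. Col1a1, Col1a2, Col3a1 and Dcn are among the markers that chose the cells left out.

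NF-kappaB feedback genes and actin genes were among those higher. Of 19 tested targets and regulators of NF-kappaB, 13 were higher and 0 lower, with a median of 1.33. Without the marker-rich cells 7 of 15 were higher, with a median of 0.77. Over all genes 5.41% were higher and 1.32% lower, and 2.84% were higher without those cells. Nfkbia, the inhibitor that holds NF-kappaB in the cytoplasm, had 208 and 216 CPM in the top quartiles, against 86.9 and 81.2 CPM in the bottom quartiles (log2 fold change 1.33, adjusted p = 6.95e-09). Nfkbiz, a nuclear member of the same inhibitor family, had 125 and 147 CPM in the top quartiles, against 53 and 50.9 CPM in the bottom quartiles (log2 fold change 1.41, adjusted p = 9.71e-09). Birc3, a ubiquitin ligase of the pathway, had 42.3 and 39.6 CPM in the top quartiles, against 14.1 and 13.4 CPM in the bottom quartiles (log2 fold change 1.56, adjusted p = 1.90e-06). The chemokine Cxcl1, at 4.11 and 11.1 CPM in the top quartiles, against 0.673 and 1.09 CPM in the bottom quartiles, was called with all cells (log2 fold change 3.11, adjusted p = 2.35e-05) and not without the marker-rich cells (1.13, adjusted p = 0.177). Ccl2 likewise gave log2 fold change 3.07, adjusted p = 0.000427, and -0.18, adjusted p = 0.927 without them.

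Of 19 tested actin and SRF target genes, 7 were higher and 1 lower, median 0.38, where 5.41% and 1.32% of all genes were. Without the marker-rich cells 7 of 16 were higher and 1 lower, median 0.29, where 2.84% and 0.767% of all genes were. Vcl, the adhesion protein vinculin, had 631 and 350.0 CPM in the top quartiles, against 328 and 154 CPM in the bottom quartiles (log2 fold change 1.05 ± 0.07, SE, adjusted p = 7.45e-07). Its level was higher in replicate 1 than in replicate 2 in both quartiles. The cytoplasmic actins Actb and Actg1 gave log2 fold changes of 0.53 ± 0.03 and 0.71 ± 0.04 (SE, adjusted p = 2.50e-07 and 1.52e-07). Actg1 had 1182 and 972 CPM in the top quartiles, against 761 and 548 CPM in the bottom quartiles.

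Stress and second messenger lists had medians from 0.00 to 0.22 on the log2 scale, against -0.02 for all genes. The shares to read these counts against are 5.41% of all genes higher and 1.32% lower, and 2.84% and 0.767% without the marker-rich cells. Of 26 heat shock genes, 5 were higher and 1 lower, with a median of 0.05. Without the marker-rich cells 5 of 25 were higher and 0 lower. Hspa1a, an inducible HSP70 gene, had 26 and 23.2 CPM in the top quartiles, against 16.8 and 14.5 CPM in the bottom quartiles (log2 fold change 0.64, adjusted p = 0.00143); its reads may be shared with its near-identical copy Hspa1b. The unfolded protein and integrated stress response list had 4 of 27 higher and 3 lower, and 3 of 26 higher and 1 lower without the marker-rich cells. The cAMP and CREB list had 2 of 20 higher and 1 lower, and 1 and 1 without those cells. The glucocorticoid and steroid list had 4 of 14 higher and 1 lower, and 1 and 0 without them. Of 28 core ERK pathway genes 5 were higher and 0 lower, median 0.00, and 3 were higher without them. Gnas, the stimulatory G protein subunit through which many hormone receptors raise cAMP, had 10672 and 11469.5 CPM in the top quartiles, against 11903 and 13395 CPM in the bottom quartiles (log2 fold change -0.21, adjusted p = 0.000539) and was the cAMP gene called lower. Among p53 targets 2 of 14 were higher, 1 of 14 without the marker-rich cells, and Cdkn1a, the cell cycle inhibitor p21, gave log2 fold change 2.46, adjusted p = 0.000628, with 1.76, adjusted p = 0.0535 without the marker-rich cells. Nuclear-retained RNAs were higher for 2 of 9, and for 1 of 8 without the marker-rich cells. Antigen presentation genes were higher for 2 of 16, Cd74 and H2-Aa, and for 0 of 15 without the marker-rich cells, and with possible doublets left out these 2 genes gave log2 fold changes of -0.25 and -0.17. Of 22 cell cycle genes 1 was higher and 2 lower, and 1 and 2 of 21 without the marker-rich cells. The higher count with all cells was near the share over all genes. Mki67, a marker of cycling cells, was low throughout, at 1.99 and 2.71 CPM in the top quartiles, against 4.88 and 7.5 CPM in the bottom quartiles (log2 fold change -1.44, adjusted p = 0.00331).

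**Figure D5:**
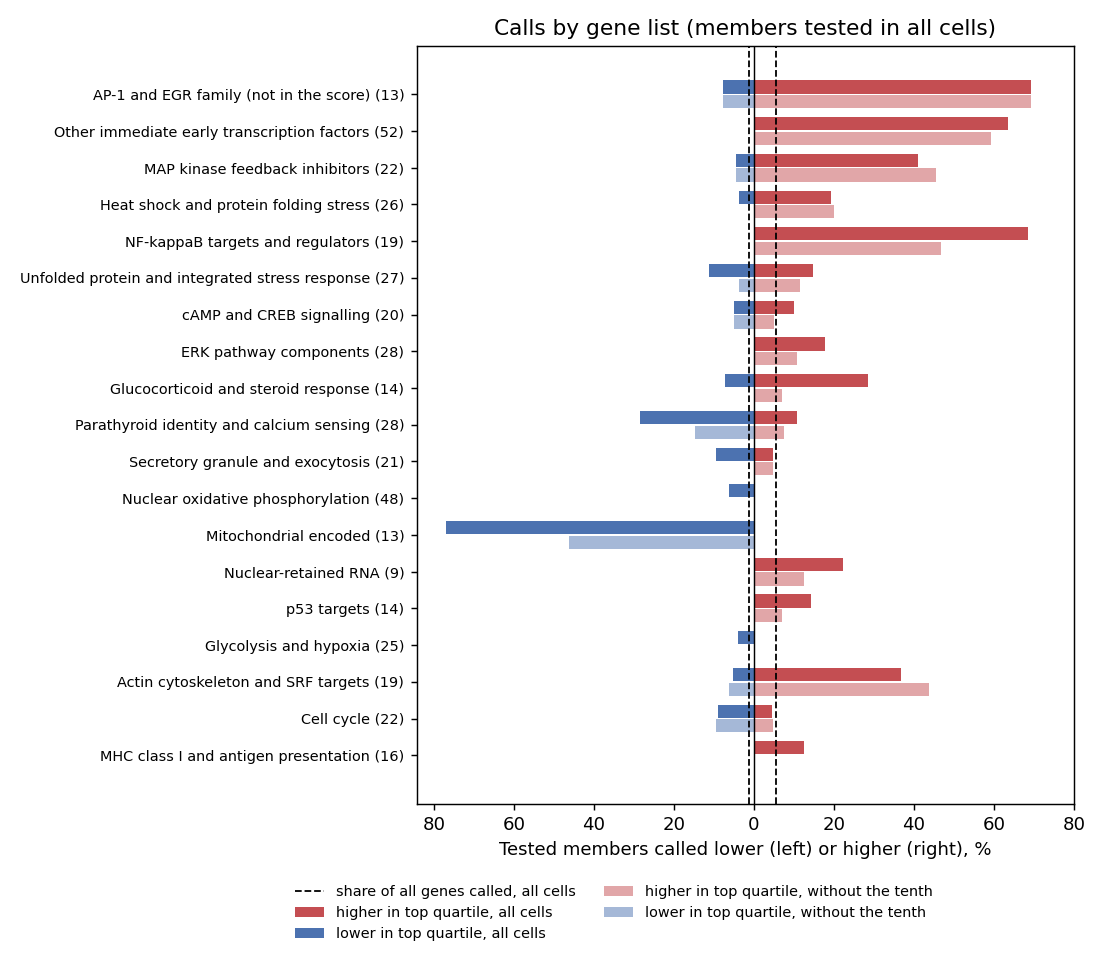
Share of the tested members of each of the 19 gene lists (y axis, members tested in parentheses) called higher (right, red) or lower (left, blue) in the top score quartile, as % of tested members; full colour is all parathyroid cells, pale colour without the tenth richest in markers of other cell types, and dashed lines mark the 5.41% and 1.32% of all genes. The immediate early, NF-kappaB and actin lists extend furthest to the right and the mitochondrial encoded genes furthest to the left.

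Of 28 parathyroid identity genes tested, 8 were lower in the high-score cells, 3 were higher and 17 were not called, with a median log2 fold change of 0.03. Pth is among the 28 and among the 8, and since it chose the cells its call carries no weight. Over all genes 1.32% were called lower and 5.41% higher. Without the marker-rich cells 4 of 27 were lower and 2 higher, with a median of 0.01, where 0.767% and 2.84% of all genes were. Casr, the calcium-sensing receptor (chr16:36493696-36562141, minus strand), had 295 and 298 CPM in the top quartiles, against 422 and 359 CPM in the bottom quartiles (log2 fold change -0.41 ± 0.05, SE, adjusted p = 0.000202), and -0.38, adjusted p = 0.000657 without the marker-rich cells. Gcm2 (chr13:41101427-41111035, minus strand), had 141 and 153 CPM in the top quartiles, against 169 and 178 CPM in the bottom quartiles (log2 fold change -0.26 ± 0.05, SE, adjusted p = 0.00789). Its RNA was present in these glands of Gcm2-/- hosts that had been complemented with ESCs. For Casr and Gcm2 the 2 top quartiles were below the 2 bottom quartiles, again with no share over all genes beside this. Gata3 and Kl, a zinc finger factor and the FGF23 co-receptor klotho, gave -0.20 and -0.19 (adjusted p = 0.0124 and 0.00426), and missed the threshold without the marker-rich cells (adjusted p = 0.0694 and 0.0652). Vdr, the vitamin D receptor, had 213 and 305 CPM in the top quartiles, against 226 and 299 CPM in the bottom quartiles and was not called, adjusted p = 0.737. Of the 3 called higher, Klf4 is also an immediate early gene, Cdc73, a parathyroid tumour suppressor, gave log2 fold change 0.27, adjusted p = 0.0278, and Rgs5, which is also a pericyte gene, was tested only with the marker-rich cells.

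Pth had 139026 and 152648 CPM in the top quartiles, against 143330.0 and 162391 CPM in the bottom quartiles. Since Pth chose the cells and its UMIs stand in the denominator of the score, its log2 fold change of -0.09 is given with no test. It was -0.03 with the score taken over UMIs without Pth, mitochondrial and haemoglobin RNA, and -0.04 without the marker-rich cells. Chga, the granule protein chromogranin A, had 83645 and 73596 CPM in the top quartiles, against 87679 and 80698 CPM in the bottom quartiles (log2 fold change -0.12, adjusted p = 0.00857), and -0.08, adjusted p = 0.24 without them. The tdTomato reporter RNA had 9939 and 10466 CPM in the top quartiles, against 10057 and 11558 CPM in the bottom quartiles (log2 fold change -0.10, adjusted p = 0.102), and Gfp 5709 and 3857 CPM in the top quartiles, against 4259.6 and 4318 CPM in the bottom quartiles (log2 fold change 0.10, adjusted p = 0.656). For Gfp the libraries went opposite ways. Of 21 secretory granule genes 1 was higher and 2 lower, and 1 and 0 without the marker-rich cells. Of all genes 5.41% were higher and 1.32% lower, and 2.84% and 0.767% without those cells. The higher granule count with all cells was near the first of these shares. Mitochondrially encoded transcripts were lower for 10 of 13 tested and higher for 0, with a median of -0.16, and for 6 of 13 without the marker-rich cells, median -0.13. The cytochrome oxidase subunit gene mt-Co1 had 6216 and 5551 CPM in the top quartiles, against 6893 and 6068 CPM in the bottom quartiles (log2 fold change -0.16, adjusted p = 0.00273). The 10 log2 fold changes lay between -0.21 and -0.14. Of 48 nuclear oxidative phosphorylation genes 3 were lower, and of 25 glycolysis genes 1 was lower; without the marker-rich cells 0 of 48 and 0 of 24 were.

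Among genes held to the same limits, the 12 largest lower differences had log2 fold changes from -0.88 to -0.47. They included Galntl6, Pcdh9, Atp10b, Tex14, Aqp4, AY036118, Txnip, Filip1l, Cdk8, Cmss1 and Mt3, of which all but Mt3 were also called without the marker-rich cells. Pcdh9, a protocadherin adhesion gene, had 126 and 114 CPM in the top quartiles, against 207 and 204 CPM in the bottom quartiles (log2 fold change -0.81 ± 0.05, SE, adjusted p = 5.16e-07). Galntl6, of a glycosyltransferase family, had 129 and 97.5 CPM in the top quartiles, against 194 and 198 CPM in the bottom quartiles (log2 fold change -0.88, adjusted p = 0.00645). Txnip, an inhibitor of thioredoxin and of glucose uptake, had 64.1 and 84.7 CPM in the top quartiles, against 117 and 104 CPM in the bottom quartiles (log2 fold change -0.53, adjusted p = 0.00338). Aqp4, a water channel, had 20 and 23.5 CPM in the top quartiles, against 36 and 33.4 CPM in the bottom quartiles (log2 fold change -0.65, adjusted p = 0.00522). For AY036118 the bottom quartile stood apart from the rest: its 4 levels from bottom to top were 320.3, 195, 163 and 198 CPM in replicate 1 and 289, 207, 198 and 211 CPM in replicate 2. Cmss1 showed the same shape, with 2620.5, 1763, 1487 and 1778 CPM and 1704, 1287, 1267 and 1320.0 CPM. Filip1l lies inside Cmss1 on the opposite strand, and since the use of strand in the counting is not stated, their reads may be shared. The near-silent cells lie in the bottom quartile, and with cells scoring under 0.05% left out 116 genes in place of 192 were called lower.

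The 2 middle quartiles were then set between the extremes. Of the 787 genes called higher, 261 stepped up at each quartile in both libraries, and of the 192 called lower 37 stepped down at each, where 358 and 110 of all 14560 tested genes did. Between the 2 middle quartiles, with the extremes set aside, 109 genes were called higher and 3 lower in the third against the second.

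Fibroblast-rule cells, which had Pth below 1% of UMIs and at least 0.5% from Col1a1, Col1a2, Col3a1, Dcn and Lum together, were ranked in the same way to see where the parathyroid gradient differed. They numbered 684, 230 in replicate 1 and 454 in replicate 2, with a median depth of 21928.5 and 19734.5 UMIs. The range of the score was not matched: the score of the summed cells was 4.24-fold and 5.03-fold higher in the top than in the bottom quartiles of parathyroid cells, and 2.78-fold and 2.69-fold in fibroblast-rule cells. In fibroblast-rule cells 266 of 14456 genes were called higher (1.84%) and 83 lower (0.574%). Of the further immediate early genes 33 of 86 were higher there, and 28 were called higher in both kinds of cell.

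The difference between the gradients, parathyroid minus fibroblast-rule, was called higher for 424 of 14456 genes (2.93%) and lower for 44 (0.304%), and without the marker-rich cells for 36 (0.252%) and 30 (0.21%) of 14295. Of the further immediate early genes 17 were higher and 3 lower, and 9 and 1 without the marker-rich cells. Atf3 was among the 9, with a difference of 1.35 on the log2 scale, adjusted p = 0.00325: its gradient was 2.96 in parathyroid and 1.61 in fibroblast-rule cells. Klf2 differed by 1.5, adjusted p = 8.19e-05, with 2.67 in parathyroid and 1.21 in fibroblast-rule cells. Irf1, Dusp1 and Nr4a1 differed by 1.18, 1.03 and 1.02 (adjusted p = 0.000138, 0.00046 and 0.00817). These terms compare gradients and not levels. Atf3, Klf2, Irf1, Dusp1 and Nr4a1 had higher levels in fibroblast-rule than in parathyroid cells. Ccn1, a matricellular SRF and YAP target, had 15.9 and 16.3 CPM in the top quartiles, against 8.92 and 3.49 CPM in the bottom quartiles in parathyroid cells (log2 fold change 1.63, adjusted p = 0.000893) and a gradient of -0.25 in fibroblast-rule cells, a difference of 1.94, adjusted p = 0.00176. Actg1 differed by 0.65, adjusted p = 0.00169. In the other direction, Dnajb1, an HSP40 chaperone gene, rose by 0.57 in parathyroid and 1.82 in fibroblast-rule cells, a difference of -1.21, adjusted p = 0.000852. Zfp36l1, a relative of Zfp36, differed by -0.51, adjusted p = 0.00981. The part of the unequal score range in these differences was not tested.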

How the data were processed

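Counts are the authors' deposited UMI count matrices of 2 10x Genomics 3′ libraries, made with Cell Ranger 7.0.0 on mm10, per the submitters' processing notes; how barcodes were called is not stated there. Totals were 41517620 and 88283761 UMIs.

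Raw UMI counts were summed per library and score quartile (8 sums) and tested with edgeR 4.0.16 (quasi-likelihood, TMM, filterByExpr, library as block, 3 residual degrees of freedom, adjusted p threshold 0.05); DESeq2 1.42.0 was an alternative. Sums of 1 library come from the same mice, which pairs them. The 6 score genes stayed in the totals and out of the tests. Pth, which also chose the cells, stayed in both and is counted among the genes called lower. The contrast with fibroblast-rule cells used 16 sums. No doublets were removed beyond sorting. Loci are from GENCODE (GRCm38), promoters from RefSeq. The scripts were tested on simulated counts.

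Members and gene lists were chosen with earlier results of these data known. Named genes are the 12 largest called differences each way with at least 20 CPM and equal sign in both libraries, up to 4 called members of each list by p, the highest uncalled member, Pth, Gcm2, Casr, Chga, tdTomato and Gfp, and the 6 largest differences each way from fibroblast-rule cells. The 12 largest without marker-rich cells and Ccl2, Cdc73, Crem, Cxcl1, Egr2, Egr3, Fosl1, Gadd45a, Gadd45g, Gata3, Kl, Mafg, Sgk1, Spry1, Spry2, Tsc22d1 and Zfp36l1 were named after their values were seen. Some genes that the rule picks are not reported here.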

Additional observations from a re-analysis of the deposited data

Results flagged for a closer look

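The results below stood out because edgeR's interaction term found the top against bottom difference to be unequal in parathyroid and fibroblast-rule cells. They are the 6 largest terms each way, as log2 differences, parathyroid minus fibroblast-rule.

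Fndc1 (7.64), Stxbp6 (7.53), Cd248 (7.08) and A2m (6.65) are genes that fibroblast-rule cells expressed at 37.1 CPM or more in every sum shown here. Stxbp6 had 1.32 and 2.88 CPM in the top quartiles of parathyroid cells, against 0 and 0 CPM in the bottom quartiles, and 121 and 91.6 against 143 and 139.6 CPM in fibroblast-rule cells. Cd248 had 1.59 and 1.13 CPM in the top quartiles of parathyroid cells, against 0 and 0 CPM in the bottom quartiles, and 40.4 and 46.9 against 86.3 and 84.9 CPM in fibroblast-rule cells. Fndc1 had 4.37 and 0.677 CPM in the top quartiles of parathyroid cells, against 0 and 0 CPM in the bottom quartiles, and 37.1 and 57.2 against 146 and 79 CPM in fibroblast-rule cells. A2m had 0.795 and 12.3 CPM in the top quartiles of parathyroid cells, against 0 and 0.344 CPM in the bottom quartiles, and 212 and 137 against 124 and 983 CPM in fibroblast-rule cells. Without the marker-rich parathyroid cells none of the 4 was called, with adjusted p between 0.153 and 0.939 and terms of 3.49, 5.34, 3.36 and 1.76.

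Zfp804b (8.02) and Ica1 (7.67) are genes of the parathyroid cells that were at 0 in the top quartiles of fibroblast-rule cells. Zfp804b had 195 and 197 CPM in the top quartiles of parathyroid cells, against 236 and 252 CPM in the bottom quartiles, and 0 and 0 against 1.84 and 8.26 CPM in fibroblast-rule cells. Ica1 had 182 and 190.2 CPM in the top quartiles of parathyroid cells, against 179 and 177 CPM in the bottom quartiles, and 0 and 0 against 1.84 and 4.59 CPM in fibroblast-rule cells. Terms of this size, like those of Fndc1, Stxbp6 and Cd248 above, rest on sums of 0 UMIs. They depend on the prior count and are no bound.

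Among the negative terms, 5730522E02Rik (-2.74) had 54.7 and 41.4 CPM in the top quartiles of parathyroid cells, against 52.2 and 47.4 CPM in the bottom quartiles, and 26.1 and 16.3 against 0.918 and 4.59 CPM in fibroblast-rule cells. Fam241a (-1.61) had 23.6 and 25.7 CPM in the top quartiles of parathyroid cells, against 24.7 and 23.7 CPM in the bottom quartiles, and 10.9 and 16.3 against 2.75 and 5.97 CPM in fibroblast-rule cells. Prlr (-1.31), the prolactin receptor, had 34.7 and 54.4 CPM in the top quartiles of parathyroid cells, against 35.5 and 66.7 CPM in the bottom quartiles, and 132 and 101 against 70.7 and 49.1 CPM in fibroblast-rule cells. Nfatc2 (-1.31), a calcium-regulated transcription factor, had 24 and 12.2 CPM in the top quartiles of parathyroid cells, against 20.5 and 8.25 CPM in the bottom quartiles, and 51.4 and 56.7 against 15.6 and 18.8 CPM in fibroblast-rule cells. Pde4b (-1.25), a cAMP phosphodiesterase, had 378 and 526 CPM in the top quartiles of parathyroid cells, against 378 and 511 CPM in the bottom quartiles, and 219.8 and 591 against 162 and 192 CPM in fibroblast-rule cells. Dnajb1 (-1.21) had 31.7 and 30.3 CPM in the top quartiles of parathyroid cells, against 19.4 and 20.8 CPM in the bottom quartiles, and 141 and 230.1 against 46.8 and 67 CPM in fibroblast-rule cells. Without the marker-rich cells 5730522E02Rik, Prlr, Pde4b and Dnajb1 were still called, and Fam241a and Nfatc2 had adjusted p = 0.0747 and 0.137.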

How the results depend on the processing

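With 110 named genes under 17 settings, 1619 of 1863 values kept their side of the threshold. Of the rest, 196 kept the direction but were no longer called, 36 became called and 12 reversed. A value counts as reversed only where the gene was called in at least 1 of the 2 fits compared. A gene called in neither counts as kept even where its sign changed. Pde4b was such a gene, at -0.00148 with the main settings and 0.00737 with DESeq2 size factors. Settings that leave out a library give no test and were counted apart. For the fibroblast contrast 258 of 323 values were kept, 60 lost, 3 gained and 2 reversed, over 19 genes.

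The counts of genes called higher and lower (787 and 192) moved to 431 and 45 with DESeq2, 180 and 3 with no replicate block, 501 and 104 with Pth at least 10% of UMIs, 427 and 100 with possible doublets left out, 396 and 107 without the marker-rich cells, 466 and 120 with cells thinned to 10000 UMIs, and 109 and 3 between the third and second quartile. Under 5 other settings the lower count moved by more than 1.5 times and the higher count by less: 1175 and 371 with no filter on low counts, 707 and 124 when ranked within 10 bins of mitochondrial share, 1071 and 383 between the top and bottom 10% of cells, 654 and 89 between the cells above and below the median score and 672 and 116 without cells scoring under 0.05%. This last setting, the third against the second quartile, and the left-out rankings without marker-rich cells were added after seeing the data. For the contrast with fibroblast-rule cells (424 and 44) the counts were 686 and 84 with no filter, 193 and 4 with no replicate block and 191 and 27 when thinned; the higher count was 162 with Pth at least 10%, 78 with doublets left out and 36 without the marker-rich cells, and the lower count 28 within 10 bins of mitochondrial share, 28 within 10 bins of Pth share and 29 on either side of the median score. The cause of these moves was not tested, apart from the smaller number of cells and sums that some settings leave by construction.

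Left out of the ranking, Fosb gave 1.69 with no replicate block, adjusted p = 0.0922, and the other 5 genes stayed called. In single libraries, which leave no residual degrees of freedom and so no test or count of calls, the log2 ratios were Fos 1.5 to 1.7, Fosb 1.66 to 1.77, Jun 1.52 to 1.57, Junb 1.23 to 1.46, Egr1 2.13 to 2.79 and Ier2 1.37 to 2.13. Reversed values were Col1a2 -0.21, Dcn -0.15, Ptn -0.36, Gsn -0.16, Col3a1 -0.10, Lsamp -0.98, Vim -0.89, Prkg1 -0.28, Akap12 -0.84 and Cd74 -0.25 without the marker-rich cells, Cd74 -0.25 and H2-Aa -0.17 with doublets left out, H2-Aa in single libraries (-0.13 to 3.53), and the Synpr contrast with fibroblast-rule cells, -5.02 with doublets left out and -5.00 without the marker-rich cells.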
